A study of Homo sapiens with 18 samples.

Results

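In 786-O cells, 86 of 13141 measured genes had a lower signal in VHL+/+ than in VHL-/- cells with each of 3 shRNAs, and these 86 genes are described here. A gene was kept when the mean of its 3 VHL+/+ arrays lay at least 0.4 below the mean of its 3 VHL-/- arrays on the log2 scale with scramble shRNA (SCR), with PBRM1 shRNA and with KDM5C shRNA, a VHL difference of -0.4 or lower each time. Past that threshold were 103 genes, and 17 were set aside by symbol, among them CCND1, ADM, NDRG1, SLC2A1, EGLN3, ANGPTL4, CA12, IL6 and IL8. The VHL differences chose the genes, so they are given below as a description and carry no test.

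786-O is an established cell line of human clear cell renal cell carcinoma that has lost VHL. The arrays compared VHL-/- cells with VHL+/+ cells, the same line with VHL put back, and asked how knockdown of the chromatin regulators PBRM1 and KDM5C changes the transcriptome in either state. There were 6 groups of 3 arrays: VHL-/- SCR, VHL-/- PBRM1 shRNA, VHL-/- KDM5C shRNA, VHL+/+ SCR, VHL+/+ PBRM1 shRNA and VHL+/+ KDM5C shRNA. All groups carried a stably expressed shRNA, a single shRNA stood for each targeted gene (PBRM1 shRNA-94 and KDM5C shRNA-60), and all come from 1 cell line, so an effect of the gene and an effect of that shRNA sequence cannot be told apart. The labels do not say that the 3 arrays of a group came from separate cultures, and p-values then measure only the spread between these arrays.

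VHL is the substrate receptor of an E3 ubiquitin ligase that marks the alpha subunits of hypoxia-inducible factor (HIF) for degradation when oxygen is present. In clear cell carcinoma VHL is lost, HIF stays active at normal oxygen, and genes of glucose uptake, glycolysis, lipid storage, angiogenesis and growth signalling are transcribed. PBRM1 is a subunit of the PBAF chromatin remodelling complex and KDM5C removes methyl groups from lysine 4 of histone H3.

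Values are log2 signals, normalized by the authors, over a range of 6.27 to 14.66 and with a median of 7.65. Signals of different genes come from different probes, so each gene is compared with itself only. Of 13 markers of renal epithelium and clear cell carcinoma, 11 were measured, among them VIM at 13.68 to 14.14, CDH2 at 11.84 to 12.56, PAX8 at 8.07 to 8.86 and CDH16 at 6.61 to 7.16 over the 18 arrays. No blood marker of 6 had a row, and of 5 endothelial ones only PECAM1 did, at 6.57 to 6.94. VHL itself had means of 7.77 to 8.02 in VHL-/- and 7.85 to 8.02 in VHL+/+ cells, and its VHL difference was 0.08, 0.17 and -0.01 with SCR, PBRM1 shRNA and KDM5C shRNA (limma, adjusted p = 0.766, 0.447 and 0.976), so that the VHL status rests on the labels. PBRM1 differed by -0.10 between PBRM1 shRNA and SCR averaged over both backgrounds (standard error 0.08, adjusted p = 0.515), so its knockdown was not detectable on these arrays, and KDM5C has no row in the table.

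Some of the members belong to gene families with a known control element, and these elements are shown first because the results below turn on the same genes. Interferon-stimulated genes carry an element bound by STAT and IRF factors, searched for here on both strands as GAAA, any 2 bases and GAAA. Of the 6 members on a list of interferon-stimulated genes, 6 held it in a RefSeq promoter (GRCh38.p14, 250 bases before to 50 after the start). Among all 61 members with a promoter 9 did (14.8%), against 4.15% of 8569 measured genes. A gene counted here with a match in any of its promoters. Counted by promoter, the element stood in 11 of 89 member promoters (12.4%), in 3.11% of 12455 promoters of measured genes and in 3.57% of all 35116 promoters. The stretches around the matches are shown for IFI27 (chr14:94110613-94110665, plus strand), IFI6 (chr1:27672261-27672363, minus strand), IFI44 (chr1:78649756-78649788, plus strand), IFIT1 (chr10:89392492-89392544, plus strand) and HERC5 (chr4:88456979-88457069, plus strand). They run 5′ to 3′ on the strand of the gene, end before its start, and capitals mark the matches, which read TTTC, any 2 bases and TTTC where the element lies on the other strand.
IFI27: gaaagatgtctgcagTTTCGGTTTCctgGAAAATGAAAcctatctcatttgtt
IFI6: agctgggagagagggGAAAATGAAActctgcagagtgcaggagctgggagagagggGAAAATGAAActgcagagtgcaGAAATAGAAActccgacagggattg
IFI44: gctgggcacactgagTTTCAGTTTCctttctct
IFIT1: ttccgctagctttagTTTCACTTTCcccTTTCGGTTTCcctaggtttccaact
HERC5: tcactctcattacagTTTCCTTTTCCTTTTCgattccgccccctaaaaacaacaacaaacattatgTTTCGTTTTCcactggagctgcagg

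The core of the hypoxia response element, to which HIF binds, was searched for as ACGTG on both strands. It is also part of the E-box CACGTG, which therefore counts as a match on both strands. The core stood in promoters of 4 of the 5 members on a list of HIF targets that have a promoter, yet of only 16 of all 61 members (26.2%), against 31.7% of measured genes. Counted by promoter, it stood in 17 of 89 member promoters (19.1%), in 24.9% of 12455 promoters of measured genes and in 21.4% of all promoters. ENO2 (chr12:6914447-6914481, plus strand), PLIN2 (chr9:19127541-19127627, minus strand), BHLHB2 (now BHLHE40, chr3:4979187-4979307, plus strand) and EDN1 (chr6:12287911-12287945, plus strand) are shown with the matches in capitals.
ENO2: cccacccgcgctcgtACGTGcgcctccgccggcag
PLIN2: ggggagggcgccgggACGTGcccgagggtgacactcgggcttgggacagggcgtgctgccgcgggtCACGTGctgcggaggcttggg
BHLHB2: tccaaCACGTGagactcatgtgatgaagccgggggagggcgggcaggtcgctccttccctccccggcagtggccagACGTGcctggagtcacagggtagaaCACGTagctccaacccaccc
EDN1: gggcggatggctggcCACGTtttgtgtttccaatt
HIF also acts through distant enhancers, which lie outside these windows, and a match is a run of letters, not a site shown to be bound.

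**Figure D1:**
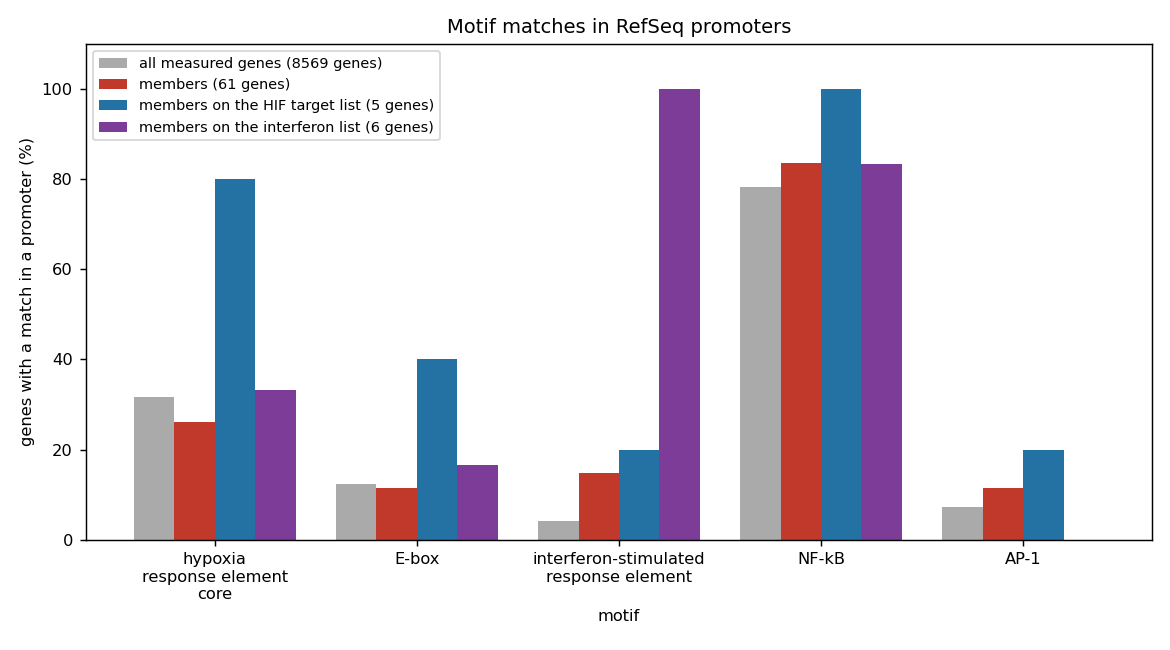
Share of genes (y axis, percent) with at least 1 match to each of 5 motifs (x axis) in a RefSeq promoter, for 8569 measured genes, 61 members, 5 members on the HIF target list and 6 members on the interferon list. The interferon-stimulated response element stands at 4.15% of measured genes and in all 6 interferon members, while NF-kB, searched for as a loose motif, is in 78.3% of measured genes and 83.6% of members.

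The remaining motifs stood close to their background. AP-1 (TGANTCA) was found for 11.5% of members and 7.26% of measured genes, and the E-box for 11.5% and 12.3%.

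Across the members the median VHL difference was -0.68 with SCR, -0.62 with PBRM1 shRNA and -0.71 with KDM5C shRNA, where the median of all genes was 0.00 each time. At the threshold of -0.4, 2.22% of all genes passed with SCR, 1.68% with PBRM1 shRNA, 1.89% with KDM5C shRNA and 0.784% with all 3. The fall was largest with SCR for 24 members, with PBRM1 shRNA for 25 and with KDM5C shRNA for 37. In 39 members the 3 differences spanned less than 0.2, and in 9 more than 0.5, among them SCG5, CXCL1, ZNF395, IFIT1, LCP1, CCL2, ARRDC3 and G0S2. In 41 of 86 members every one of the 9 VHL+/+ arrays lay below every one of the 9 VHL-/- arrays, which holds for 0.609% of all genes. The differences are of RNA from whole cultures, in which fewer cells with a transcript and less transcript per cell cannot be told apart.

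**Figure D2:**
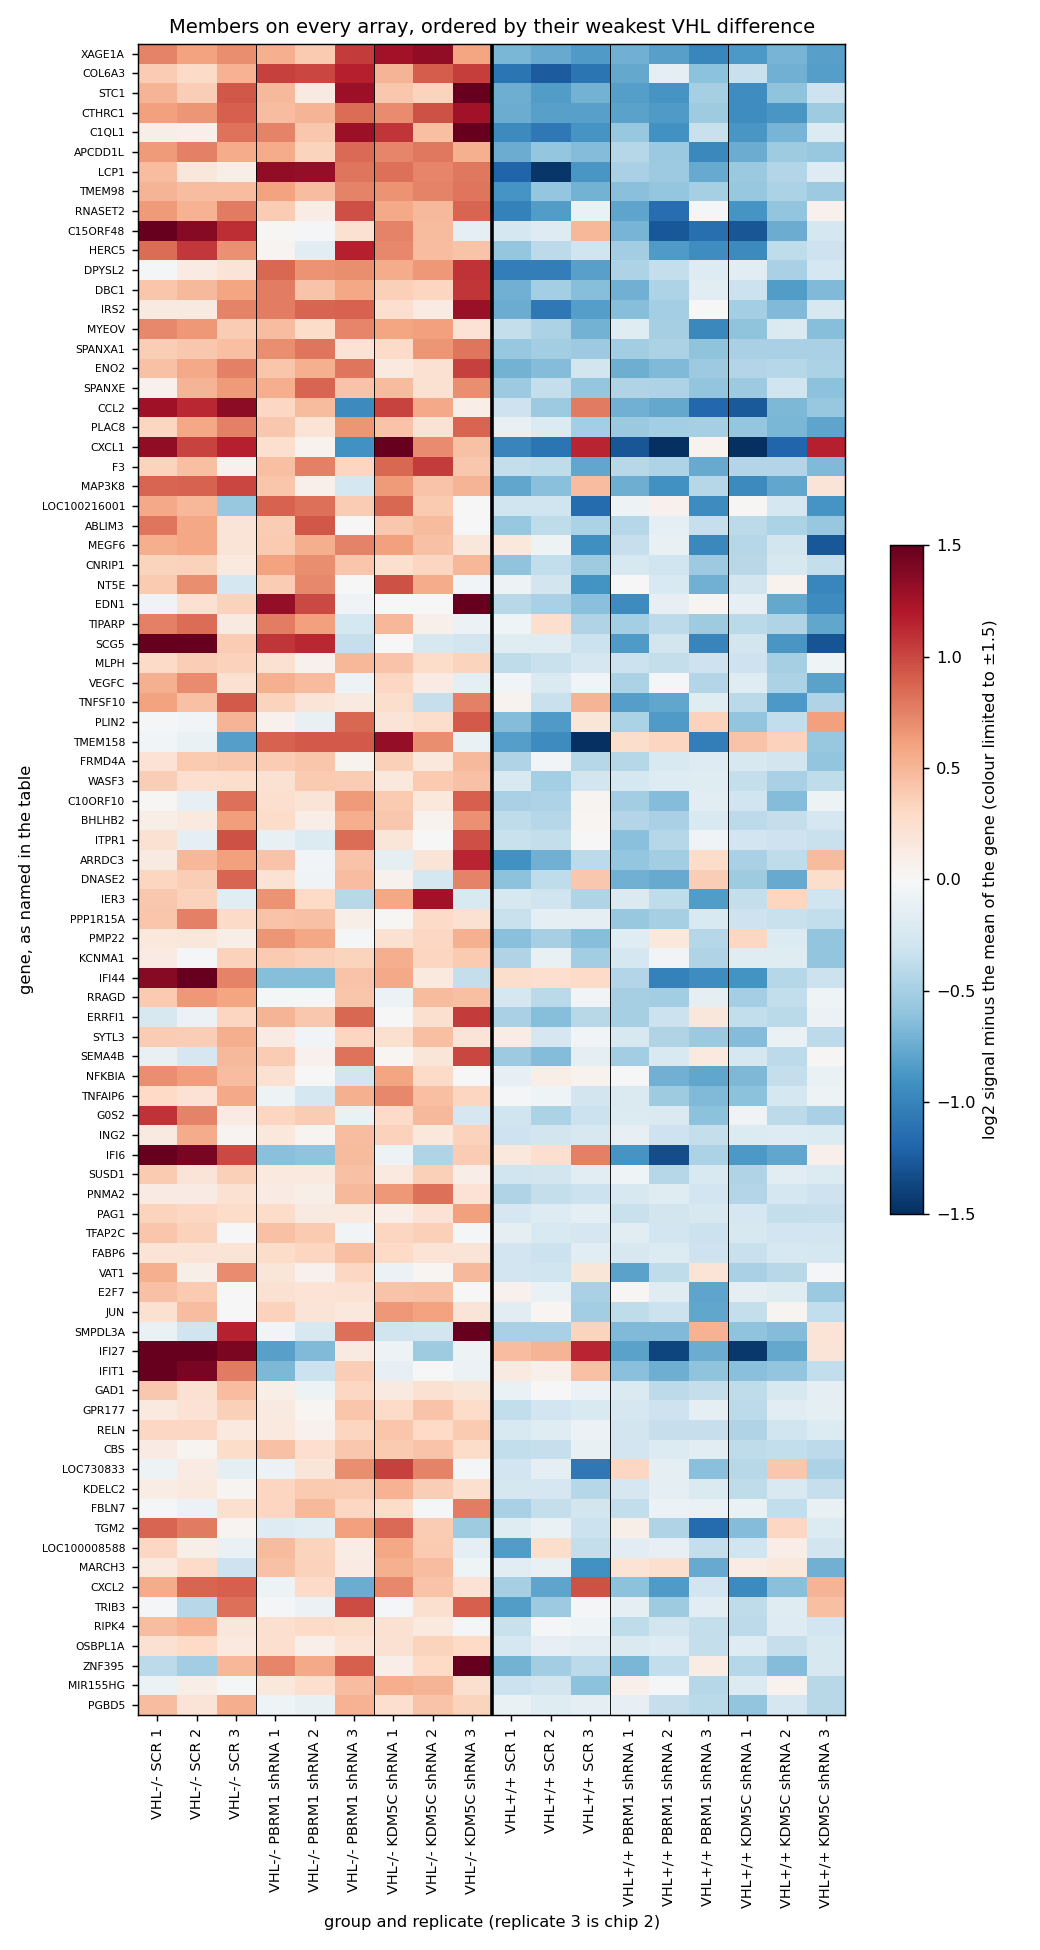
Log2 signal of 85 members (rows, ordered by the weakest of their 3 VHL differences) on each of the 18 arrays (columns), minus the mean of the gene and with colours limited to 1.5 either way. The 9 VHL-/- arrays are left of the thick line and the 9 VHL+/+ arrays right of it, and thin lines part the shRNAs. The upper rows separate at the thick line, while IFI27, IFI6 and TMEM158 also change between shRNAs and CXCL1 changes between replicates.

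COL6A3, the alpha-3 chain of type VI collagen, had signals of 8.98 to 9.86 (median 9.60) on the 9 VHL-/- arrays and of 7.45 to 8.54 (median 7.93) on the 9 VHL+/+ arrays. Its VHL difference was -1.54 with SCR, -1.57 with PBRM1 shRNA and -1.44 with KDM5C shRNA. The backgrounds did not overlap, and COL6A3 was 1 of 14 members with all 3 differences at -1 or lower, a fall to at most 50% of the VHL-/- signal.

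CTHRC1, a secreted protein with a collagen-like repeat, ranged from 9.58 to 10.37 (median 9.83) in VHL-/- and from 8.18 to 8.59 (median 8.31) in VHL+/+ cells, with differences of -1.51, -1.33 and -1.76. STC1, the secreted glycoprotein hormone stanniocalcin 1 and a known HIF target, ranged from 8.03 to 9.79 (median 8.39) and from 6.96 to 7.58 (median 7.17). C1QL1, a secreted C1q-like protein, ranged from 8.12 to 9.59 and from 6.96 to 7.84. All 3 separated the backgrounds without overlap, and the highest VHL-/- arrays of STC1 and C1QL1 were KDM5C shRNA replicate 3.

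LCP1, the actin-bundling protein L-plastin, best known from blood cells, ranged from 8.40 to 9.64 (median 9.11) in VHL-/- and from 6.85 to 8.12 (median 7.76) in VHL+/+ cells, with differences of -1.41, -1.75 and -1.18. DPYSL2, a microtubule-binding protein also known as CRMP2, ranged from 9.40 to 10.50 (median 10.06) and from 8.38 to 9.25 (median 8.95). IRS2, the adaptor that links the insulin and IGF1 receptors to PI3 kinase, ranged from 10.22 to 11.38 (median 10.84) and from 9.02 to 10.08 (median 9.45). None of the 3 overlapped between backgrounds, although the 9 arrays of each background also spread between shRNAs.

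RNASET2, a lysosomal acid ribonuclease, ranged from 12.63 to 13.49 (median 13.10) in VHL-/- and from 11.39 to 12.59 (median 11.74) in VHL+/+ cells. Its differences were -1.30, -1.13 and -1.12, and VHL+/+ replicate 3 was the highest of its group with every shRNA. TMEM98, a transmembrane protein, was tight on both sides, at 8.12 to 8.45 and 6.77 to 7.18, with differences of -1.20, -1.17 and -1.27. Also among the 14 were APCDD1L (-1.31, -1.23 and -1.30), C15ORF48 (-1.34, -1.10 and -1.13), HERC5 (-1.28, -1.12 and -1.09) and the gene listed as DBC1 (-1.12, -1.04 and -1.19), a name that RefSeq gives as a synonym of both BRINP1 and CCAR2.

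XAGE1A, a cancer-testis antigen of a kind normally made in the germ line, had the largest weakest fall of the 86 members. It ranged from 7.91 to 8.84 (median 8.20) in VHL-/- and from 6.53 to 6.82 (median 6.69) in VHL+/+ cells, and its differences were -1.44, -1.50 and -1.85. Of the cancer-testis antigens SPANXA1 and SPANXE, SPANXA1 ranged from 7.32 to 7.91 and from 6.50 to 6.63, and SPANXE from 7.25 to 8.05 and from 6.56 to 6.88. All 3 separated the backgrounds without overlap. They belong to families of near-identical copies on the X chromosome, so which copy gave the signal is uncertain. The VHL+/+ signals of these 3 genes lay near the lowest of all values (6.27), where the floor limits the size of a fall and the spread.

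Of the 20 members with the largest weakest fall, 4 remain. MYEOV, a gene named from myeloma, had differences of -1.10, -1.04 and -0.97, ENO2 of -1.13, -1.24 and -0.92, CCL2 of -1.28, -0.83 and -1.39 and PLAC8 of -0.83, -0.95 and -1.19. CCL2 was the only one of these 4 whose backgrounds overlapped.

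At the other end, the threshold ran through a continuum. Just inside were PGBD5 (-0.54, -0.40 and -0.76), MIR155HG (-0.40, -0.41 and -0.63) and ZNF395 (-0.40, -1.04 and -1.13). Just outside were CD99 (-0.50, -0.40 and -0.75), C5ORF62 (-0.40, -0.43 and -0.54) and FRMD6 (-0.47, -0.43 and -0.40), each with 1 value short of the threshold in the third decimal. The median residual SD of the members was 0.19 and that of all genes 0.12.

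HIF targets were the first group examined by role. On a list of 141 HIF targets, 104 were measured and 9 were members, among them STC1, ENO2, EDN1, PLIN2, TMEM158, BHLHB2, PAG1 and ZNF395. ENO2, the enolase first described in neurons and a glycolytic enzyme, ranged from 7.94 to 8.83 (median 8.34) in VHL-/- and from 7.07 to 7.53 (median 7.25) in VHL+/+ cells. BHLHB2, a transcriptional repressor, ranged from 10.998 to 11.62 (median 11.21) and from 10.45 to 10.97 (median 10.56), with differences of -0.54, -0.69 and -0.71. Both genes separated the backgrounds without overlap, and both hold the ACGTG core printed above.

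PLIN2, which coats the lipid droplets that give clear cells their name, had very even differences of -0.59, -0.60 and -0.57. Its arrays nevertheless overlapped, at 10.37 to 11.40 in VHL-/- and 9.62 to 11.09 in VHL+/+ cells. On chip 1 the 6 VHL-/- values were 10.37 to 10.74 and the 6 VHL+/+ values 9.62 to 10.11, without overlap. On chip 2 the 3 and 3 values were 10.98 to 11.40 and 10.65 to 11.09, all above those of the same background on chip 1. EDN1, the vasoconstrictor endothelin 1, had differences of -0.68, -1.09 and -1.15, and ranged from 7.89 to 9.56 in VHL-/- and from 7.003 to 7.99 in VHL+/+ cells. PAG1, a membrane adaptor that binds the kinase CSK, was low and tight, at 7.60 to 8.12 and 7.14 to 7.37.

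The 95 listed HIF targets that are not members were read in the same VHL contrasts that the rule used, so their counts are a description. With SCR, limma called 7 of the 95 lower and 0 higher in VHL+/+ cells, where 0.685% of all genes were called lower. With PBRM1 shRNA 12 were called lower and 1 higher (0.51% of all genes lower), and with KDM5C shRNA 12 lower and 0 higher (0.563% of all genes lower). Most of those called lower had passed the rule and been set aside by symbol, namely 6 of 7 with SCR, 9 of 12 with PBRM1 shRNA and 10 of 12 with KDM5C shRNA. ADM, CA12, CCND1, DDIT4, NDRG1 and SLC2A1 were among these with every shRNA, while ALDOA, GAL3ST1 and ADORA2B were called with PBRM1 shRNA and PFKP and BNIP3L with KDM5C shRNA. These names were chosen after their values were seen, and whether a call differed between shRNAs was not tested. A call needed a fold change of 1.5 or more with an adjusted p below 0.05, from a limma fit over all 13141 genes with the chip as a term.

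Inflammatory genes were the next group. On a list of 76 NF-kB and inflammatory genes, 63 were measured and 7 were members: CCL2, CXCL1, F3, IER3, NFKBIA, TNFAIP6 and CXCL2. F3, the tissue factor that starts coagulation, separated the backgrounds without overlap, at 7.83 to 8.82 (median 8.21) in VHL-/- and 6.98 to 7.41 (median 7.33) in VHL+/+ cells. NFKBIA, the inhibitor that holds NF-kB in the cytoplasm, had differences of -0.58, -0.49 and -0.67, and IER3, an immediate early gene, of -0.52, -0.66 and -0.65. TNFAIP6, a secreted hyaluronan-binding protein, had differences of -0.49, -0.53 and -0.82.

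The chemokines of this group differed between the chips. CXCL1, which attracts neutrophils, read 10.38, 10.07 and 10.21 on the VHL-/- SCR arrays and 8.06, 7.96 and 10.18 on the VHL+/+ SCR arrays. With PBRM1 shRNA it read 9.30, 9.10 and 8.14 against 7.77, 7.22 and 9.10, and with KDM5C shRNA 10.90, 9.76 and 9.49 against 7.14, 7.86 and 10.21. The third value of each triplet is the chip 2 array, and with all 3 shRNAs the third VHL+/+ array stood above the other two, so that CXCL1 was lower in VHL+/+ cells on chip 1 and, with PBRM1 and KDM5C shRNA, higher on chip 2.

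CXCL1 had the highest residual SD of the members (0.94). CXCL2, a related chemokine, showed the same arrangement with VHL+/+ values of 7.29, 6.99 and 8.74 with SCR against 8.34, 8.66 and 8.69 in VHL-/- cells. The falls of these 2 genes in the means therefore rest on the chip 1 arrays.

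Interferon-stimulated genes were the third group. On a list of 122, 111 were measured and 6 were members: HERC5, which attaches the ubiquitin-like ISG15 to proteins, TNFSF10, the death ligand TRAIL, IFI44, IFI6, IFI27 and IFIT1, which binds viral RNA. Under SCR their VHL differences were -1.28, -0.58, -0.97, -0.94, -0.92 and -1.02 in that order. With PBRM1 shRNA they were -1.12, -0.81, -0.51, -0.65, -0.52 and -0.44, and with KDM5C shRNA -1.09, -0.80, -0.67, -0.47, -0.45 and -0.46. IFI44, IFI6, IFI27, IFIT1 and HERC5 had their largest difference with SCR, and TNFSF10 had its smallest there, a description with no test because the rule used these values. In VHL-/- cells with PBRM1 shRNA, replicate 3 on chip 2 stood above replicates 1 and 2 for all but TNFSF10. IFI44 read 9.11, 9.12 and 10.18 there, against 9.32, 8.74 and 8.82 in VHL+/+ cells. IFIT1 read 9.42, 9.77 and 10.46 against 9.47, 9.36 and 9.49. With PBRM1 shRNA the falls of both genes therefore rest largely on that array. With single arrays left out in turn, IFI44 and IFIT1 stayed members 17 times of 18, IFI6 14 and IFI27 12.

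Of the 105 other listed interferon genes, limma called 21 lower and 0 higher in VHL+/+ cells with SCR, 1 lower and 2 higher with PBRM1 shRNA and 0 lower and 1 higher with KDM5C shRNA. The shares of all genes called lower were 0.685%, 0.51% and 0.563%. A listed gene that fell by 0.4 or more with all 3 shRNAs is a member unless set aside by symbol, so the rule itself lowers these counts, and nothing is read from how they differ between shRNAs. HERC5 lay apart from the other 5 members, since its 9 VHL+/+ arrays (8.14 to 8.79) were all below its 9 VHL-/- arrays (8.93 to 10.26).

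The effect of an shRNA averaged over both VHL backgrounds is a measure that the rule did not use, since adding the same amount to both backgrounds leaves the VHL difference as it was. For PBRM1 shRNA against SCR, limma called 12 of the 86 members (14.0%), with 1.34% of all genes called. Lower were 8 members (0.632% of all genes lower) and higher 4 (0.708% of all genes higher). The members vary more between arrays than most genes, as their residual SD above shows. Their signals also lie higher, with a median of 8.37 against 7.65 for all genes, and 0 of the 86 were in the dimmest 25%. The part of either in the counts was not tested. At an adjusted p under 0.05 without the fold threshold, 28 members passed against 11.7% of all genes, 14 lower (5.66% of all genes) and 14 higher (6.07%). The median change of the members was -0.03 and that of all genes 0.00, so the members as a whole did not shift in 1 direction.

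For KDM5C shRNA against SCR, 10 of 86 members were called (11.6%), with 1.19% of all genes called. They were 7 lower (0.51% of all genes lower) and 3 higher (0.685% of all genes higher). At an adjusted p under 0.05 alone 22 members passed against 11% of all genes, 10 lower (5.55%) and 12 higher (5.46%), and the median change of the members was 0.01. Both contrasts share the 6 SCR arrays, so their likeness is partly built in, and their values are given side by side.

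**Figure D3:**
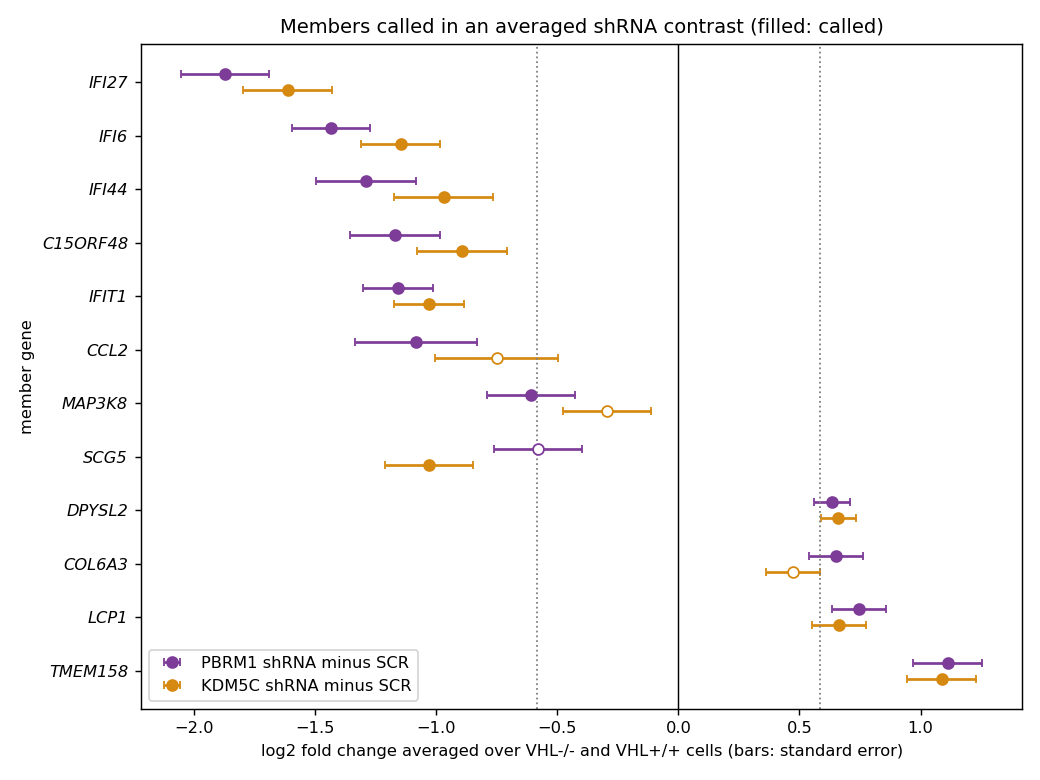
Log2 fold change of PBRM1 shRNA (purple) and KDM5C shRNA (orange) against SCR, averaged over VHL-/- and VHL+/+ cells (x axis), for 12 members called in at least 1 contrast (y axis), with standard errors from limma as bars. Filled points were called and dotted lines mark a fold change of 1.5. IFI27 lies furthest left at -1.87 and -1.61, and TMEM158 furthest right at 1.11 and 1.09.

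Of the 6 interferon members, IFI27, IFI6, IFI44 and IFIT1 were called lower with both shRNAs. IFI27, a small mitochondrial protein, read 10.59, 10.46 and 10.22 on the VHL-/- SCR arrays, 7.99, 8.15 and 8.94 with PBRM1 shRNA and 8.73, 8.27 and 8.73 with KDM5C shRNA. In VHL+/+ cells it read 9.26, 9.31 and 9.95 with SCR, 8.01, 7.43 and 8.06 with PBRM1 shRNA and 7.36, 8.03 and 8.997 with KDM5C shRNA. Every SCR array lay above every array of either shRNA.

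For IFI27 the averaged change was -1.87 with PBRM1 shRNA (standard error 0.18, limma, adjusted p = 6.01e-06) and -1.61 with KDM5C shRNA (standard error 0.18, adjusted p = 2.66e-05). IFI6, a mitochondrial membrane protein that opposes cell death, read 12.33, 12.19 and 11.75 in VHL-/- SCR and 10.92, 11.02 and 11.52 in VHL+/+ SCR cells. With PBRM1 shRNA it read 10.14, 10.16 and 11.24 in VHL-/- and 9.88, 9.43 and 10.29 in VHL+/+ cells. Its averaged changes were -1.43 and -1.14 with PBRM1 and KDM5C shRNA (adjusted p = 2.67e-05 and 0.000227), and chip 2 stood closer to SCR than chip 1, with within-chip changes of -1.71 and -0.88 for PBRM1 shRNA and -1.39 and -0.65 for KDM5C shRNA.

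IFIT1 changed by -1.16 and -1.03 (adjusted p = 6.80e-05 and 0.000210) and IFI44 by -1.29 and -0.97 (adjusted p = 0.000579 and 0.00550). TNFSF10 had -0.55 and -0.54, which passed the adjusted p (0.0118 and 0.0142) but not the fold threshold, and HERC5 had -0.43 and -0.22 (adjusted p = 0.137 and 0.489). The median over the 6 was -1.22 with PBRM1 and -0.998 with KDM5C shRNA, beside medians of -0.36 and -0.30 over the other 105 listed genes. Of these 105, 27 and 24 were called lower (0.632% and 0.51% of all genes) and 0 higher.

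Residuals of the 6 genes after group and chip had a mean pairwise correlation of 0.37, where all genes had 0.00 and the 86 members 0.02. This is a description over 18 arrays that were normalized together. The chip term is the same for every group, so a shift of replicate 3 in 1 group stays partly in the residuals. In VHL-/- PBRM1 shRNA cells replicate 3 stood out for HERC5 (9.13, 8.93 and 10.26), IFI44, IFI6, IFI27 and IFIT1, but not for TNFSF10 (11.53, 11.39 and 11.33).

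**Figure D4:**
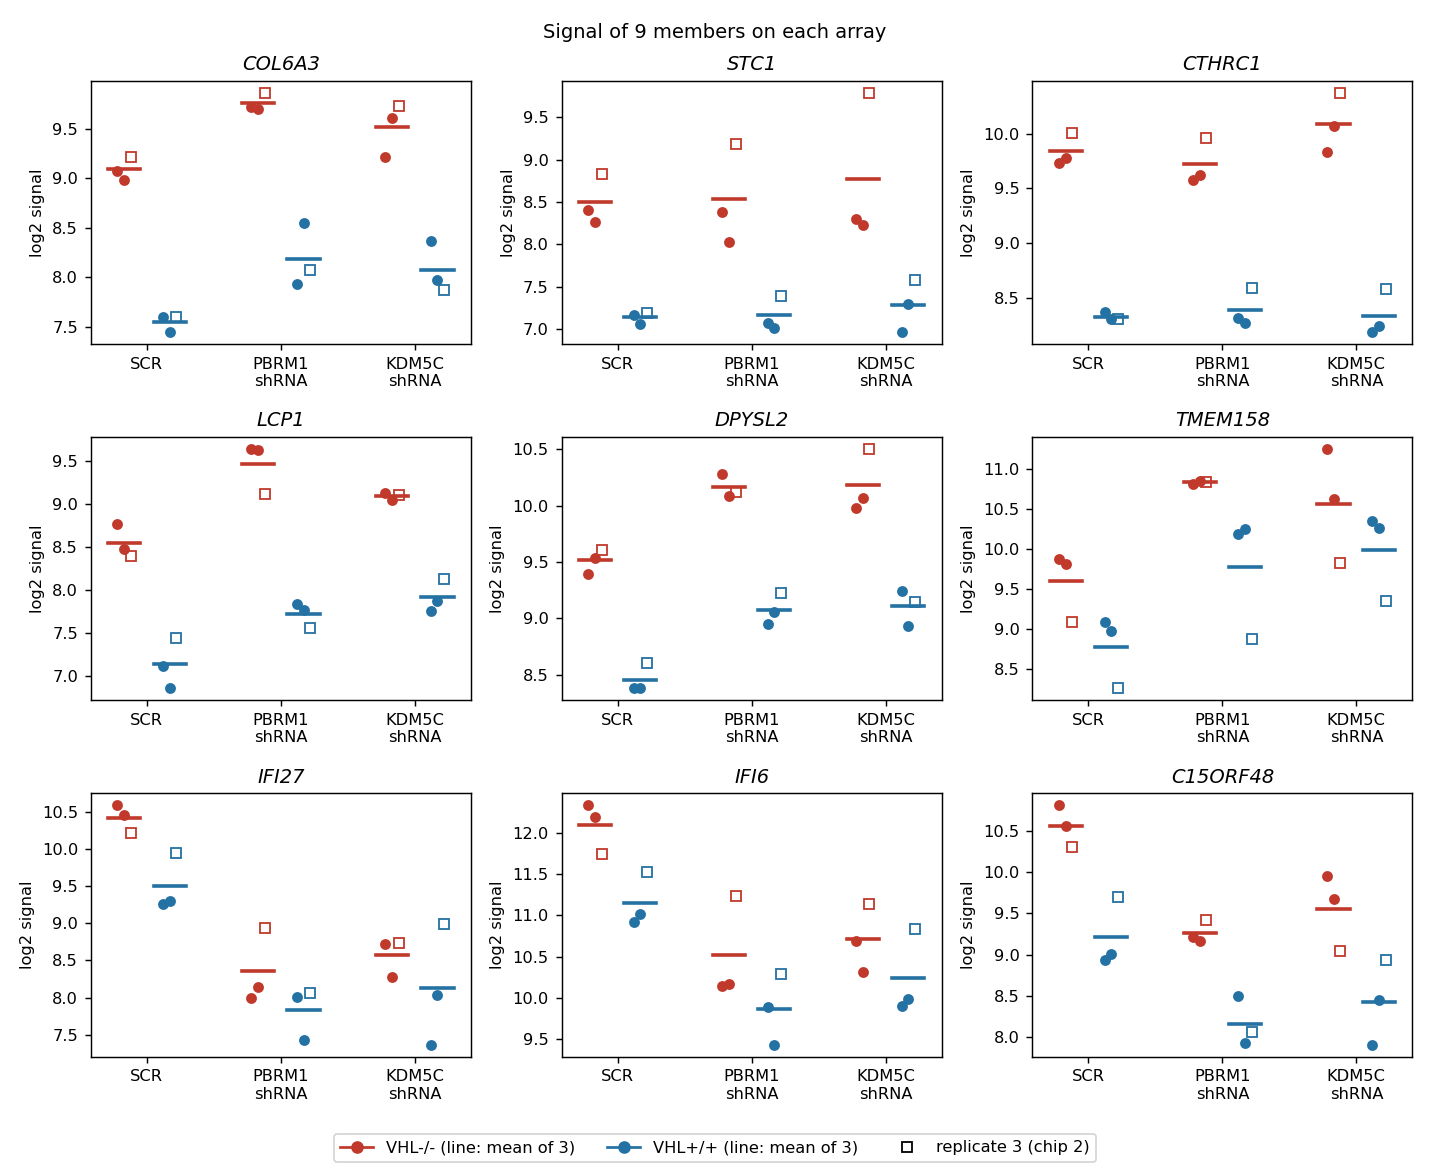
Log2 signal (y axis, with its own scale in each panel) of 9 members on every array by shRNA (x axis), with VHL-/- cells in red and VHL+/+ cells in blue, lines at the mean of 3 and open squares for replicate 3, which is the chip 2 array. COL6A3, STC1, CTHRC1, LCP1 and DPYSL2 separate by VHL with every shRNA, TMEM158, LCP1 and DPYSL2 are higher with either shRNA than with SCR, and IFI27, IFI6 and C15ORF48 are lower.

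C15ORF48, a small mitochondrial protein now named COXFA4L3, read 10.81, 10.56 and 10.31 in VHL-/- SCR and 8.94, 9.01 and 9.70 in VHL+/+ SCR cells. With PBRM1 shRNA it read 9.22, 9.16 and 9.42 in VHL-/- and 8.50, 7.93 and 8.07 in VHL+/+ cells, and with KDM5C shRNA 9.95, 9.68 and 9.05 and 7.91, 8.45 and 8.93. In each background every SCR array lay above every array of either shRNA. C15ORF48 fell by 1.17 and 0.89 on the log2 scale (adjusted p = 0.000585 and 0.00506). At a fold threshold of 2 in place of 1.5, its call and that of IFI44 with KDM5C shRNA were lost.

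CCL2, which attracts monocytes, was called lower with PBRM1 shRNA at -1.08 (adjusted p = 0.0100), where the change was -0.56 on chip 1 and -2.13 on chip 2. With KDM5C shRNA it had -0.75 (adjusted p = 0.0703), and it was called there without VHL+/+ SCR replicate 2, VHL-/- PBRM1 shRNA replicate 3 or VHL-/- KDM5C shRNA replicate 1 (adjusted p = 0.0371, 0.0221 and 0.0494). SCG5, the secretory chaperone 7B2, was called lower with KDM5C shRNA at -1.03 (adjusted p = 0.00140). With PBRM1 shRNA SCG5 had -0.58 (adjusted p = 0.0490), just under the fold threshold, and passed it when replicate 3 of VHL-/- SCR or replicate 2 of VHL-/- PBRM1 shRNA was left out (-0.71 and -0.65). MAP3K8, the kinase TPL2 and named after its values were seen, was called with PBRM1 shRNA at -0.61 (adjusted p = 0.0381), a call that was lost without any of 7 single arrays, namely VHL+/+ SCR replicate 3, VHL+/+ PBRM1 shRNA replicates 2 and 3, VHL-/- SCR replicates 1 and 2 and VHL-/- PBRM1 shRNA replicates 2 and 3, at adjusted p = 0.0574 to 0.115, and also without the chip term (adjusted p = 0.113) and at a fold threshold of 2.

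Of the inflammatory members, CCL2 was thus the only one called in either contrast. NFKBIA had -0.56 with PBRM1 shRNA (adjusted p = 0.0121, below the fold threshold) and -0.35 with KDM5C shRNA (adjusted p = 0.120). CXCL1 had -1.04 and -0.25 with adjusted p = 0.168 and 0.801, a large change with an equally large spread, and CXCL2 -0.71 and -0.29 (adjusted p = 0.0944 and 0.568). The medians over the 7 were -0.56 and -0.25, beside -0.18 and -0.10 over the other 56 listed genes. Of these 56, 6 and 4 were called lower (0.632% and 0.51% of all genes) and 0 higher. Residuals of the 7 had a mean pairwise correlation of 0.34 with each other and of 0.10 with the interferon members.

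TMEM158, LCP1 and DPYSL2 were called higher with both shRNAs and COL6A3 with PBRM1 shRNA. TMEM158, a membrane protein induced by oncogenic RAS, read 9.88, 9.82 and 9.09 in VHL-/- SCR, 10.80, 10.85 and 10.84 in VHL-/- PBRM1 shRNA and 11.24, 10.62 and 9.82 in VHL-/- KDM5C shRNA cells. In VHL+/+ cells it read 9.09, 8.98 and 8.26 with SCR, 10.19, 10.24 and 8.88 with PBRM1 shRNA and 10.35, 10.26 and 9.35 with KDM5C shRNA. The chip 2 array was the lowest of each triplet except in VHL-/- PBRM1 shRNA cells.

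The averaged change of TMEM158 was 1.11 with PBRM1 shRNA (standard error 0.14, adjusted p = 8.55e-05) and 1.09 with KDM5C shRNA (standard error 0.14, adjusted p = 0.000106). LCP1 rose by 0.75 and 0.66 (adjusted p = 0.000348 and 0.000953) and DPYSL2 by 0.64 and 0.66 (adjusted p = 3.16e-05 and 2.58e-05). COL6A3 rose by 0.65 with PBRM1 shRNA (adjusted p = 0.00107), a call lost without VHL+/+ PBRM1 shRNA replicate 2, where the change was 0.55. With KDM5C shRNA COL6A3 had 0.47 (adjusted p = 0.0114), below the fold threshold. At a fold threshold of 2 the calls of LCP1, DPYSL2 and COL6A3 were lost, and TMEM158 was the 1 member called higher with either shRNA. With PBRM1 shRNA these 4 genes thus changed against the direction of their VHL difference, and IFI27, IFI6, IFI44, IFIT1, C15ORF48, CCL2 and MAP3K8 along it.

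Of the 9 HIF target members, 7 were not called with either shRNA, and TMEM158 rose with both. Of all genes, 1.34% were called with PBRM1 shRNA and 1.19% with KDM5C shRNA, so most genes were not called either. STC1 had 0.03 and 0.21 (adjusted p = 0.945 and 0.450), ENO2 -0.05 and -0.01 (adjusted p = 0.803 and 0.959) and BHLHB2 -0.05 and 0.01 (adjusted p = 0.705 and 0.954). PLIN2 had 0.12 and 0.32, of which the second passed the adjusted p alone (0.440 and 0.0213), and ZNF395 had 0.55 and 0.47 (adjusted p = 0.0215 and 0.0512). Of the other 95 listed HIF targets, 2 were called lower and 3 higher with PBRM1 shRNA (0.632% and 0.708% of all genes). The same counts were found with KDM5C shRNA (0.51% and 0.685% of all genes).

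PBRM1 shRNA and KDM5C shRNA were also compared with each other, a contrast that uses no SCR array. Of the 86 members limma called 0, as of all 13141 genes (0%), and 7 members and 531 genes had an unadjusted p under 0.05. The differences of the members ran from -0.79 (CXCL1) to 0.45 (SCG5), with a median size of 0.10 and a smallest adjusted p of 0.972. For IFI27 the difference was -0.26 with a 95% interval of -0.64 to 0.13, for TMEM158 0.02 (-0.28 to 0.33) and for SCG5 0.45 (0.07 to 0.84). For DPYSL2 it was -0.03 (-0.18 to 0.13). The intervals leave room for differences of the size of the fold threshold (0.58 on the log2 scale) in IFI27 and SCG5, and in DPYSL2 and TMEM158 they do not.

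Each group had its replicates 1 and 2 on chip 1 and its replicate 3 on chip 2, so the chip effect is also independent of the rule. It was called for 16 of 86 members, 7 lower and 9 higher on chip 2, with 1.44% of all genes called, 0.411% lower and 1.03% higher. Among those lower on chip 2 were TMEM158 (-0.82), SCG5, NT5E, LOC100216001, MARCH3 and IER3. Higher were SMPDL3A (1.20), PLIN2 (0.85, adjusted p = 1.12e-06), DNASE2 (0.78), TRIB3, STC1, ZNF395, RNASET2, ARRDC3 and ITPR1. The labels give the chip only, so cultures, extractions and scans that may have gone with it cannot be told apart.

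The rule chose the 86 members on means over the arrays of both chips, so their counts within a chip are largely set by it and are a description. Within chip 1, 85 of the 86 members had all 3 VHL differences below 0, LOC730833 being the exception. Within chip 2, where each group is 1 array, 80 did, the exceptions being CXCL1, CXCL2, EDN1, IFI27, IFI44 and TGM2. Past -0.4 with all 3 shRNAs were 60 members on chip 1 and 50 on chip 2, where 0.715% of all genes passed on chip 2.

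The chips also allow the rule to be applied to one set of arrays and read on another. On the 12 arrays of chip 1 the rule picked 76 genes. On the 6 arrays of chip 2, which had no part in that choice apart from the common normalization, 33 of the 76 (43.4%) passed the rule again, against 0.405% of 12829 other genes and 0.715% of all genes. All 3 differences were below 0 for 60 of the 76 (78.9%), against 17.4% of the other genes. The median difference shrank from -0.78 on chip 1 to -0.58 on chip 2.

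A limma fit on the 6 chip 2 arrays alone, with the shRNA as a block, called 24 of the 76 lower (31.6%), with 0.297% of all genes called lower. At an unadjusted p under 0.05, 62 were lower against 7.06% of all genes. Genes that did not fall on chip 2 lie above 0 in the scatter of the chips, and 52 of the 76 were not called in this fit with 1 array per group.

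**Figure D5:**
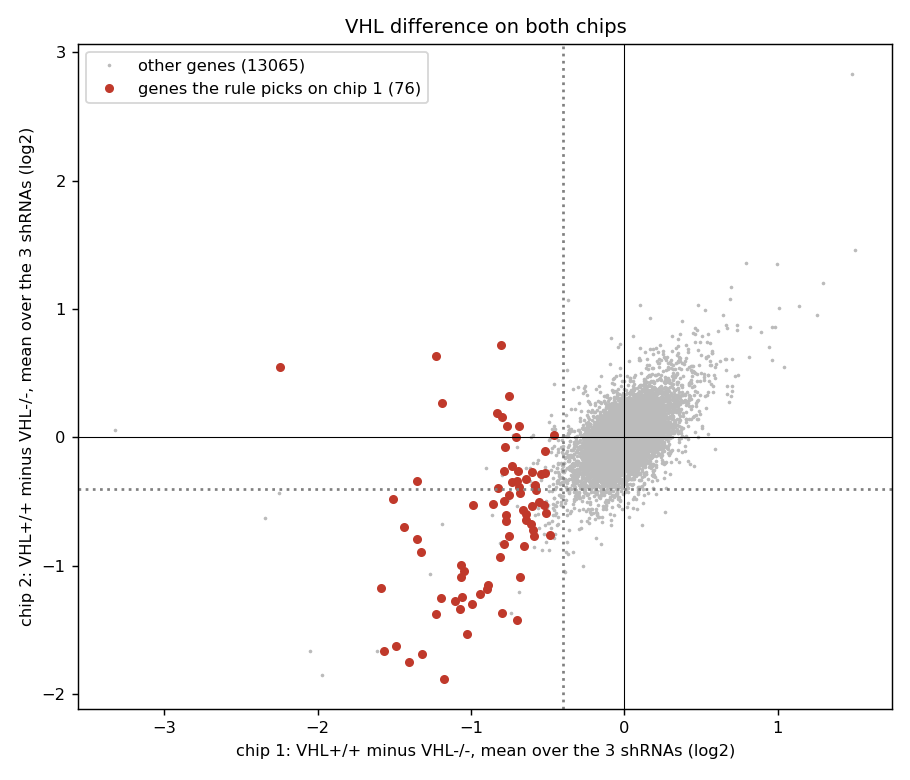
VHL difference (VHL+/+ minus VHL-/-, log2, mean over the 3 shRNAs) on chip 1 (x axis) and chip 2 (y axis) for all 13141 genes, with the 76 genes that the rule picked on chip 1 in red and dotted lines at -0.4. Most red points lie below 0 on chip 2, around a median of -0.58, and a few lie above 0.

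Most members belonged to none of the lists. Of 72 cell cycle genes 68 were measured and 0 were members, and of 165 matrix, adhesion and protease genes 124 were measured and 2 were members, COL6A3 among them. Of 165 growth factors, receptors and signalling regulators 126 were measured and 7 were members: STC1, IRS2, EDN1, VEGFC, IER3, SEMA4B and JUN. VEGFC, a growth factor for lymphatic vessels, had even differences of -0.59, -0.62 and -0.58, and JUN, a subunit of AP-1, had -0.45, -0.73 and -0.72. Of 118 lipid and carbohydrate genes 92 were measured and 3 were members, ENO2, PLIN2 and the fatty acid binding protein FABP6.

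The 58 members on no list include several whose functions are well known, and 8 are given here. ERRFI1, a feedback inhibitor of the EGF receptor, had VHL differences of -0.50, -0.81 and -0.71, PPP1R15A, the phosphatase subunit GADD34 of the stress response, -0.69, -0.75 and -0.52, and TRIB3, a pseudokinase of the same response, -0.59, -0.57 and -0.41. NT5E, the ectonucleotidase CD73 that makes adenosine, had -0.69, -0.69 and -0.89. KCNMA1, a calcium-activated potassium channel, had -0.51, -0.61 and -0.74, and ITPR1, the inositol trisphosphate receptor, -0.58, -0.54 and -0.70. G0S2, an inhibitor of the lipase ATGL, had -1.02, -0.55 and -0.48, and CBS, which makes cystathionine from homocysteine, -0.42, -0.58 and -0.74. These names were chosen from the 58 for their known roles after their values were seen.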

How the data were processed

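The experiment used 18 Illumina HumanHT-12 V4 bead arrays. The deposited values are log2 signals per gene: the authors used GenomeStudio and limma for background correction to positive values, log2 transformation and quantile normalization, selected probes as present with a detection limit of 0.05 and took the mean over the probes of each gene. Whether ComBat, used for heat maps, went into these values is not given in the sources used here, but chip effects remain in them. Nothing was normalized again. Detection calls per array were not used. The number of arrays limits the precision.

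Groups and chips come from the labels. The members, gene lists, motifs and tests were chosen with earlier results of these data known. Contrasts were fitted with limma 3.58.1 in R 4.3.3 with terms for the 6 groups and the chip (11 residual degrees of freedom), empirical Bayes moderation and Benjamini-Hochberg adjustment over 13141 genes, and the fit was tested on simulated data. The study's methods text gives a fold threshold of 2 and its Venn diagrams print 1.5. Here 1.5 was used, with 2 as an alternative. Named genes are the 20 members with the largest weakest fall, up to 5 called members each way per averaged contrast, 3 genes either side of the threshold, and members on the HIF, interferon and NF-kB lists. Exceptions are marked, and the results of some single genes are not reported here. Of 86 member symbols, 75 are current in RefSeq, 6 are synonyms, 2 are ambiguous and 3 have no match. Promoters of RefSeq GRCh38.p14 were matched by symbol, with 61 members in the table.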

Additional observations from a re-analysis of the deposited data

How the results depend on the processing

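The threshold set the number of members: 151 genes passed at -0.3, 51 at -0.5 and 32 at -0.6, in place of 86. With single arrays left out there were 72 to 88 members, and 39 of the 86 were kept every time. The 72 came without VHL-/- PBRM1 shRNA replicate 3, where the plain mean of a group loses its chip 2 array. With the chip effect removed, an alternative chosen after seeing the data, the range was 79 to 90, with 47 kept every time and GAD1 kept 12 times of 18. Chip 1 alone gave 76 members (60 shared with the 86), chip 2 alone 85 (50 shared), and cyclic loess 88 (86 shared).

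For PBRM1 shRNA against SCR, a fold threshold of 2, which the methods text gives, left 7 members lower and 1 higher, and an adjusted p alone gave 14 lower and 14 higher. For KDM5C shRNA these were 5 lower and 1 higher and, with an adjusted p alone, 12 higher. For the chip they were 2 and 38 members. Each follows from the looser or stricter call. Leaving out each array gave 7 to 10 lower and 3 to 5 higher with PBRM1 shRNA, 7 to 9 and 3 to 4 with KDM5C shRNA, 0 to 0 between the shRNAs and 11 to 18 for the chip. Of the HIF targets that are not members, 4, 5 and 7 were called lower with SCR, PBRM1 and KDM5C shRNA without the chip term, 5 and 7 with PBRM1 and KDM5C shRNA at a fold of 2, and 13 and 22 with SCR and KDM5C shRNA at an adjusted p alone. The cause of the loss without the chip term was not tested. Each array left out gave 6 to 8, 11 to 12 and 9 to 12.

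Deviations of same-numbered arrays correlated at -0.17 to 0.72 over 45 pairs, with a median of 0.28 against -0.21 over 90 pairs of different numbers. Replicate 2 pairs were at 0.11 or above and replicate 3 pairs had a median of 0.52. Not every pair was over 0.1, so the numbers were not taken to pair the arrays. With the replicate number as a block in place of the chip, 8 members were lower and 4 higher with PBRM1 shRNA and 7 and 3 with KDM5C shRNA, the counts of the chip term. On chip 2 alone the mean VHL difference was 0.55 for CXCL1 and 0.27 for CXCL2, above 0. Single-gene VHL differences were followed under the alternatives only for the 20 members with the largest weakest fall, which do not include CXCL1 and CXCL2. Of these values 30 moved by more than the spread between replicates and 450 did not. Among the counts, 17 moved by over 1.5 times. Single-gene shRNA values were followed only for members called in an averaged contrast. Of 676 such values under the alternatives, 0 changed direction, 20 lost a call and 8 gained one.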
